A study of Mus musculus with 2 samples.

Results

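The transcription factor Nrf2, its inhibitor and 8 genes it is known to activate under oxidative stress were examined in cultured mouse chondrocytes that were stretched for a short time and left for 24 h. The members are Nfe2l2, which encodes Nrf2, Keap1, Hmox1, Nqo1, Gclc, Gclm, Txnrd1, Srxn1, Slc7a11 and G6pdx. They were chosen by name, and probes were assigned to them through the RefSeq accession that the array files give. All 10 had a probe, Hmox1 had 2 and each other member had 1, which made 11 probes among those of 20660 named genes. Every one of the 11 probes was a single spot that was well above background on both arrays and not saturated.

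The cells were primary chondrocytes isolated with collagenase from 6-day-old C57BL/6J mice, with no genetic alteration named in the labels. They were grown for 48 h in fibronectin-coated silicon chambers and then stretched by 10% at 0.5 Hz for 30 min. There were 2 one-colour arrays on the same slide, of which 1 carried RNA of cells not yet loaded and 1 that of cells harvested 24 h after loading. With a single array per time point no replicate spread is known, and the values below are given without tests. The screen was made to find genes through which loading raises Mmp13. In the study's own experiments reactive oxygen species (ROS) appeared soon after loading and had declined within hours, long before the 24 h array. Nrf2 was among the ROS-responsive factors it tried on the promoter of GREM1, the gene it followed up, and only RelA raised that activity markedly. Because the control cells were harvested earlier and unloaded cells of the same age were not analysed here, the effect of loading and that of a further day in culture cannot be told apart. The labels do not say how many mice or cultures each RNA came from.

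Nrf2 is a transcription factor that Keap1 binds in the cytoplasm and delivers to a Cul3 ubiquitin ligase for degradation. Oxidants and electrophiles modify cysteines of Keap1, Nrf2 then accumulates, pairs with a small Maf protein and binds antioxidant response elements in the DNA of its target genes. The targets make glutathione and thioredoxin work, regenerate NADPH and break down haem and quinones. Because Nrf2 is controlled mainly through its degradation, the mRNA of Nfe2l2 and Keap1 does not measure its activity. Cartilage has little blood supply and low oxygen, and Nrf2 is known as part of the antioxidant defence of chondrocytes.

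The array files give no probe sequences, so promoter sequences from RefSeq (GRCm38.p6) are shown to point out where the core of the antioxidant response element lies near the start of the members. The window ran from 250 bases before to 50 bases after the start of a gene. The core was searched as TGACNNNGC on both strands. A window was listed for 8 members, of which 5 held the core. Over all 27025 genes with a window, 14.0% held it, and over all 32851 windows, 12.4%. Txnrd1 was listed with 3 windows, 1 of which held the core. The windows of Nqo1, Keap1 and Slc7a11 did not hold these letters. Hmox1 and Gclc were not in the table. The matches are printed 5′ to 3′ on the strand of the gene, with the core, or its reverse complement, in capitals. They lie at chr10:82859089-82859147 for Txnrd1, chr3:122245398-122245456 for Gclm, chrX:74428904-74428962 for G6pdx, chr2:75704870-75704913 for Nfe2l2 and chr2:152105527-152105573 for Srxn1. G6pdx and Nfe2l2 are on the minus strand and the other members printed on the plus strand.
Txnrd1: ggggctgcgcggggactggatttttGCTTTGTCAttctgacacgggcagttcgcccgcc
Gclm: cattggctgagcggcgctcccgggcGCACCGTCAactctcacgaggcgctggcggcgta
G6pdx: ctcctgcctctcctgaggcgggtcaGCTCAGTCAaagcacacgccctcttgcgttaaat
Nfe2l2: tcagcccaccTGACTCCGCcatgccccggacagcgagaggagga
Srxn1: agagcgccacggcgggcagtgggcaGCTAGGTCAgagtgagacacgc

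The core ended 84 bases before the start in Txnrd1, 126 in Gclm, 49 in G6pdx and 232 in Nfe2l2, and in Srxn1 it began at base 29 of the transcript. The AP-1 motif, TGACTCA or its reverse complement TGAGTCA, can overlap the core, and it did so in 3.66% of the windows that held the core. Among the 8 members with a window only Srxn1 held an AP-1 motif, at 2 places, and over all genes 5.95% held one. The one nearer to the start, at chr2:152105454-152105510, ended 39 bases before it and is shown with the motif in capitals, because AP-1 is another factor that responds to stress.
Srxn1: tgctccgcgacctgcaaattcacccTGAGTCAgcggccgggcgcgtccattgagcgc

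These matches are descriptions of letters and not binding sites. Across the arrays, the 1860 detected genes with the core in a window had a median log2 ratio of -0.01, and the 9454 without it -0.02.

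Intensities below are the processed spot intensities of the scanner software, in arbitrary units. The 75th percentile of the probes, used to scale the arrays, lay at 466.4 before loading and 466.2 at 24 h. The log2 ratio is the scaled value at 24 h minus that before loading. Its error, combined from what the software gives for each spot, covers within-array error only. A gene is called detected when its brightest probe was well above background on both arrays, which held for 14222 genes. The error hardly differed between bright single spots, with a median of 0.20 over the detected genes, so it worked much like a fixed cutoff. For scale, repeated spots of the same probe differed by a median SD of 0.09 in log2 ratio, as measured on the 264 probes with 8 spots or more. Since each RNA was made from a whole culture, fewer cells of a type and less RNA per cell cannot be told apart in any of these values.

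The members were slightly lower or level at 24 h, and the brighter of the 2 Hmox1 probes was the lowest, while the dimmer one, at a log2 ratio of -0.43, lay close to Nqo1 at -0.35. Of the 10 members, 0 passed 2-fold in either direction, against 2.5% of the detected genes. Lower intensities at 24 h were found for 9 of the 10, against 52.4% of the detected genes, but this count depended on scaling and was 7 when arrays were scaled by their medians or to spike-in controls. The detected genes above 0 then made up 63.1% and 61.7%, in place of 47.6%. Only Hmox1 was lower by more than 1.5-fold, against 5.84% of the detected genes, and no member was higher by as much. In either direction 9.49% of the detected genes passed 1.5-fold. The ratio exceeded the within-array error in 3 members, Hmox1, Nqo1 and Gclm, against 43.4% of the detected genes, and in Hmox1 alone it exceeded 2 errors, against 17.0%. The median log2 ratio of the members was -0.18, and that of all detected genes -0.01.

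**Figure D1:**
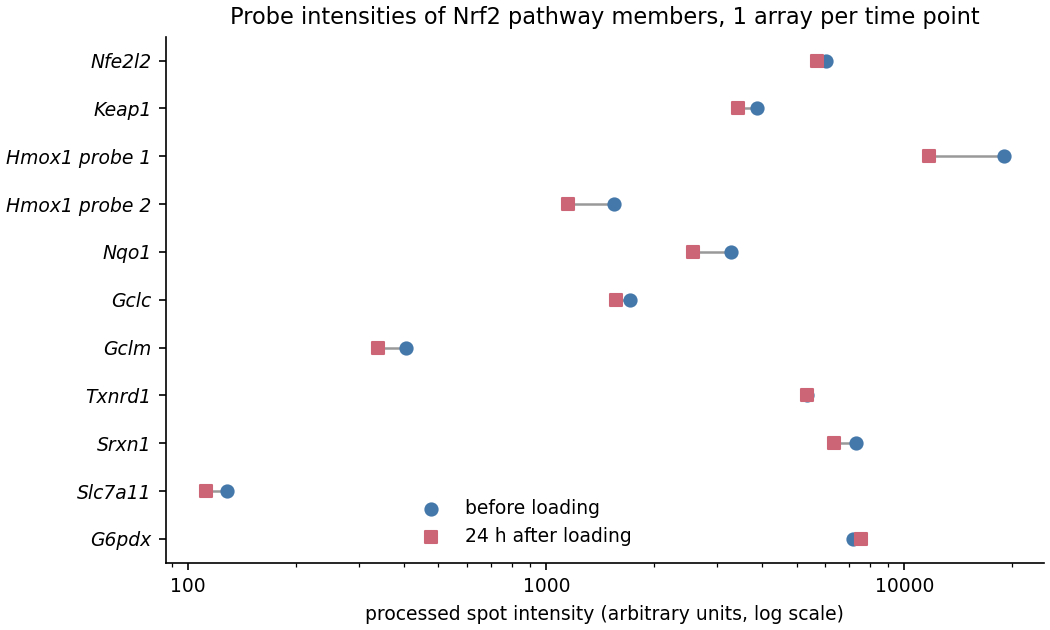
Processed intensity (arbitrary units, log scale) of each of the 11 probes on the array before loading (circles) and 24 h after loading (squares), with 1 array per time point and a line joining the values of a probe. The squares lie left of the circles except for G6pdx, and the widest gap is that of the brighter probe of Hmox1, from 18957 to 11702.

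The regulator and its inhibitor differed little between the arrays. Nfe2l2 (NM_010902) gave 6029 in unloaded cells and 5685 at 24 h. Its log2 ratio of -0.08 was inside its error of 0.20, and it turned to 0.01 with median scaling and to 0.005 when spike-in controls set the scale. Keap1 (NM_016679), the adaptor that presents Nrf2 for degradation, had 3872 before and 3441 at 24 h, a log2 ratio of -0.17 with an error of 0.20. It stayed below 0 under all 9 other settings run, between -0.17 and -0.07.

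Hmox1 (NM_010442) encodes haem oxygenase 1, the inducible enzyme that splits haem into biliverdin, iron and carbon monoxide. Its brighter probe gave 18957 before loading and 11702 at 24 h, which was 1.62-fold lower with a log2 ratio of -0.70 and an error of 0.20. Its dimmer probe had 1547 before and 1149 at 24 h, a log2 ratio of -0.43 with an error of 0.20. Both probes were thus lower at 24 h, by amounts that differed by 0.27 on the log2 scale. The mean over both probes, -0.56, came inside 1.5-fold, while the brighter probe stayed beyond it under the other 8 settings, the highest of which was -0.60 with median scaling. Counted from the bottom, the brighter probe ranked 586 of the 14222 detected genes, so that 4.11% of them had a lower ratio. Over the other settings this share lay between 1.99%, with normexp correction, and 6.05%, with the mean over probes. The unprocessed spot medians above local background gave the same direction, from 20878 to 12757 for the brighter probe and from 1628 to 1113 for the dimmer one. They come from the same spots and are not an independent check.

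Markers of cells other than chondrocytes are given here because haem oxygenase 1 is also abundant in macrophages, and the haem it splits is part of haemoglobin. Of 13 macrophage markers, 12 had a probe and 11 were detected, 5 higher and 6 lower at 24 h. With median scaling these became 8 and 3, where 63.1% of all detected genes were higher. The summed intensity of those with a probe was 5087 before and 4897 at 24 h, most of it from Csf1r. The brightest Csf1r probe had 3646 and 3288, a larger fall than that of the sum, while its other probes had log2 ratios of 0.20 and 0.27. The next brightest markers, Lyz2 and Fcer1g, had log2 ratios of 0.46 and -0.09. Ptprc, a marker of all leukocytes, had 20.9 and 46.1, a log2 ratio of 1.14 with an error of 0.35 near the limit of detection, and 0.40 with normexp background correction. Adgre1, a gene typical of tissue macrophages, had 55.6 and 59.0, and the complement gene C1qa, the lowest of the list, 47.5 and 35.4. Of 8 erythroid markers with a probe, 5 were not detected, among them the globins Hbb-bs and Hbb-bt and the haem synthesis enzyme Alas2. The globin Hba-a2 had 284 before and 253 at 24 h, and the 8 erythroid markers with a probe summed to 431 and 402. The part of these cells in the Hmox1 values was not tested.

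Nqo1 (NM_008706) encodes a quinone reductase that uses NAD(P)H to detoxify quinones, and it is among the most widely used readouts of Nrf2. It had 3277 before loading and 2571 at 24 h, a log2 ratio of -0.35 with an error of 0.20, or 1.27-fold lower. This was the second lowest ratio of the members. It ranged from -0.36 to -0.25 over the other settings and did not change sign.

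Glutathione synthesis begins with cystine, which the antiporter subunit Slc7a11 brings into the cell in exchange for glutamate. Slc7a11 (NM_011990) was the dimmest member, with 128 before loading and 112 at 24 h, a log2 ratio of -0.19 with an error of 0.22. Gclc (NM_010295), the catalytic subunit of glutamate-cysteine ligase, the rate-limiting enzyme of the pathway, had 1712 and 1566, a log2 ratio of -0.13. Gclm (NM_008129), its modifier subunit, had 404 and 339, a log2 ratio of -0.25, and was the only one of these 3 beyond its error, which was 0.21. All 3 stayed below 0 under the 9 other settings, with Gclc at its highest at -0.03 with median scaling. The difference between the subunits of the ligase, 0.13, was less than their errors.

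Thioredoxin reductase 1, encoded by Txnrd1 (NM_001042523), keeps thioredoxin reduced at the expense of NADPH. It had 5358 before loading and 5336 at 24 h, a log2 ratio of -0.01 that changed sign with the scaling, to 0.09 with medians. Srxn1 (NM_029688), sulfiredoxin, repairs overoxidised peroxiredoxins. It had 7308 and 6351, a log2 ratio of -0.20 that was just inside its error of 0.20. G6pdx (NM_008062), glucose-6-phosphate dehydrogenase, opens the pentose phosphate pathway and supplies NADPH, which thioredoxin reductase consumes. It was the only member with a higher intensity at 24 h, 7186 before and 7582 after, a log2 ratio of 0.08 with an error of 0.20. The mouse genome also holds a close retrocopy of G6pdx, and whether the probe binds its transcript was not tested. The direction held under the 9 other settings, from 0.07 to 0.18.

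**Figure D2:**
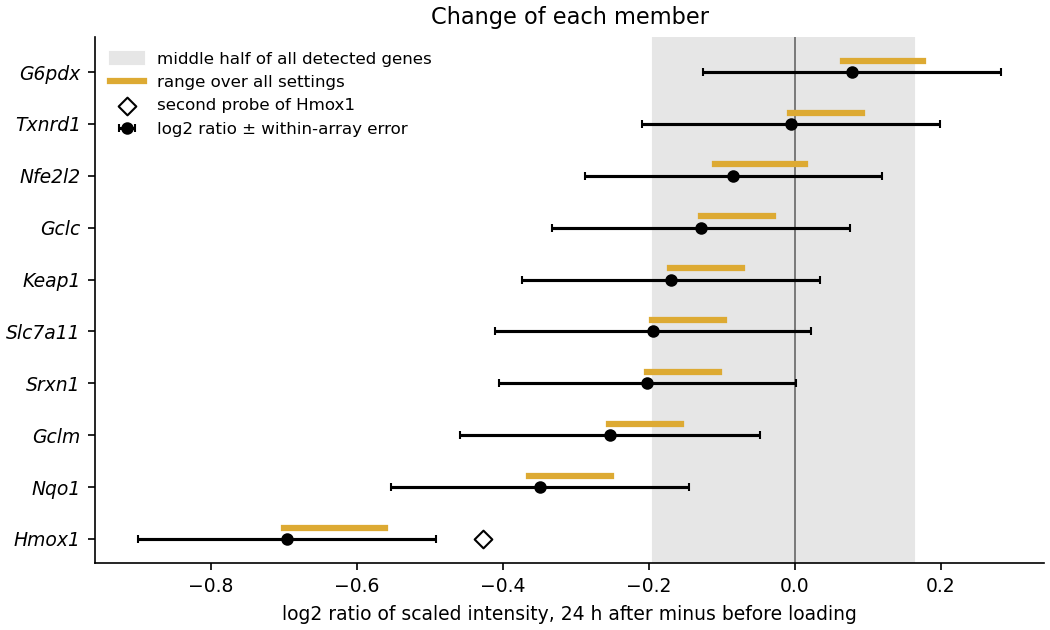
Log2 ratio of each member (24 h after minus before loading) at its brightest probe, with bars for the within-array error, a coloured line for the range over all settings and a diamond for the second probe of Hmox1. The shaded band, from -0.19 to 0.16, is the interquartile range of the detected genes. In it lie 6 members, with Slc7a11 at its lower edge, and Hmox1 at -0.70 lies farthest from it.

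In order from the highest to the lowest ratio the members were G6pdx, Txnrd1, Nfe2l2, Gclc, Keap1, Slc7a11, Srxn1, Gclm, Nqo1 and Hmox1. Of the 9 neighbouring pairs in this order, 8 were closer than the combined error of the pair, with gaps of at most 0.10. The gap of 0.35 between Nqo1 and Hmox1 exceeded its combined error of 0.29. With the mean over probes Hmox1 was at -0.56, and the gap of 0.21 was then less than that error. The SD of the ratios among the members was 0.21, and that of all detected genes 0.38. Below the interquartile range of the detected genes lay 4 members, Srxn1, Gclm, Nqo1 and Hmox1, and above it 0.

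**Figure D3:**
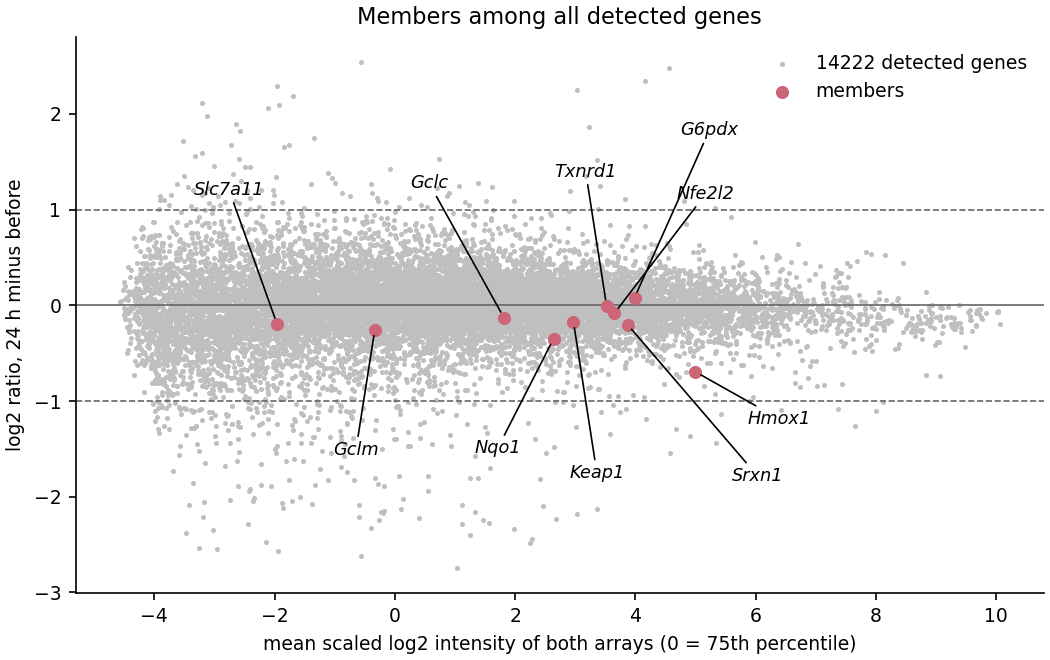
Log2 ratio (24 h minus before) against the mean scaled log2 intensity of both arrays for the 14222 detected genes in grey and the 10 members in red, with dashed lines at 2-fold. All 10 members lie between the dashed lines, and Hmox1 at -0.70 is the lowest of them.

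The spots around the members were looked at because changed spots lie side by side in some areas of these arrays. The spot of each member's brightest probe had between 26 and 30 other spots within 100 µm, and that of the dimmer Hmox1 probe had 25. Only neighbours well above background on both arrays were checked for a change, between 15 and 20 per member and 10 around the dimmer Hmox1 probe. At 5 members none of the checked neighbours had passed 2-fold, and at the other 5 a single one had. The median log2 ratio of the detected neighbours lay between -0.09, around the brighter Hmox1 spot, and 0.07. No member lay in an area where at least 3 checked neighbours had changed in one direction.

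Beyond the members, 76 genes of the pathway in 6 lists were followed, of which 71 were detected. Past 2-fold, 1 of these was higher and 3 were lower, and 29 were above and 42 below 0, with a median log2 ratio of -0.07. Above 0 were thus 40.8% of them, beside 47.6% of all detected genes. With median scaling the split turned to 37 above and 34 below 0. Above 0 were then 52.1% of them, beside 63.1% of all detected genes. Over all detected genes 0.668% were higher and 1.83% lower by over 2-fold. The medians of the regulators, of the NADPH enzymes and of the haem and iron genes were below 0 as reported and above 0 with spike-in, quantile, loess and median scaling. That of the glutathione genes stayed below 0 but came to -0.004 with median and -0.01 with spike-in scaling. That of the thioredoxin genes lay between -0.14 and -0.09 under these scalings. The median of all detected genes moved too. It was -0.01 as reported, 0.08 with median, 0.07 with spike-in and 0.02 with either quantile or loess scaling.

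Among 17 partners and regulators of Nrf2, 16 were detected, 7 above and 9 below 0. Btrc, a ubiquitin ligase subunit that can direct Nrf2 to degradation independently of Keap1, had 169 before loading and 383 at 24 h on its brighter probe, 2.26-fold higher. The other probe of Btrc had 84.4 and 97.2, a log2 ratio of 0.20, and the mean of both came inside 2-fold at 0.69, as did the brighter one at 0.98 with normexp correction. Maff, a small Maf partner of Nrf2, was dim, with 87.5 and 39.5, a log2 ratio of -1.14. Nfe2, a relative of Nrf2 known from the erythroid lineage, was dimmer still, with 49.1 and 19.4, a log2 ratio of -1.34. Of the spots around that of Nfe2, 2 were more than 2-fold lower, as was 1 around that of Maff. With normexp background correction, whose offset of 50 pulls dim ratios toward 0, Maff was at -0.52 and Nfe2 at -0.40, both inside 2-fold. Of the other small Maf genes, Mafg had 11963 and 12628, a log2 ratio of 0.08, and Mafk had 489 on both arrays. Bach1, a repressor that competes with Nrf2 for its elements and is best known for repressing Hmox1, had 684 and 738, a log2 ratio of 0.11. The ligase scaffold Cul3 had a log2 ratio of -0.08, and its RING subunit Rbx1 had -0.18, -0.28 and 0.27 on its 3 probes. Sqstm1 encodes p62, which draws Keap1 into autophagy and is itself a Nrf2 target. It had 5795 before and 4139 at 24 h, a log2 ratio of -0.49 that stayed between -0.49 and -0.39 over the other settings.

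Of 19 genes for the synthesis and use of glutathione, 18 were detected, 7 above and 11 below 0. Gsta2, a glutathione S-transferase, had 490.5 before loading and 147 at 24 h, 3.34-fold lower with a log2 ratio of -1.74 and an error of 0.21. It stayed beyond 2-fold under all 9 other settings, the highest being -1.38 with normexp correction. Of the 27 spots around that of Gsta2, none of those well above background on both arrays had passed 2-fold. Transferases of this class are close in sequence and Gsta1 was not analysed here, so the value may hold signal of more than 1 gene. Mgst1, a membrane-bound transferase, was highest, with 316 and 433, a log2 ratio of 0.45 on one probe and 0.55 on the other. Slc3a2, the heavy chain that pairs with Slc7a11, had 39957 and 32946, a log2 ratio of -0.28. Glutathione synthetase, Gss, had -0.04, and glutathione reductase, Gsr, -0.11 and 0.03 on its 2 probes.

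All 10 genes of the thioredoxin system were detected, 2 above and 8 below 0, with a median log2 ratio of -0.19. Of all detected genes 52.4% were below 0. With median scaling 4 of the 10 were above and 6 below 0, while 63.1% of all detected genes were above it. Thioredoxin 1, Txn1, had 32136 before loading and 25906 at 24 h, a log2 ratio of -0.31. Its inhibitor Txnip had -0.34 on the brighter probe and -0.25 on the other. Prdx1, a peroxiredoxin that thioredoxin reduces, had -0.24 on the brighter probe and 0.09 on the other. The lowest of this list was Txnrd3 at -0.36 and the highest Prdx6 at 0.22.

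Of the NADPH enzymes, 7 of 8 had a probe and all of these were detected, 3 above and 4 below 0. Pgd, which follows G6pdx in the pentose phosphate pathway and makes a further NADPH, was lowest, with 9182 before loading and 6861 at 24 h. Its log2 ratio of -0.42 with an error of 0.20 differed from the 0.08 of G6pdx by more than their combined error of 0.29. Idh1, cytosolic isocitrate dehydrogenase, was highest at 0.14. In haem and iron handling all 9 genes were detected, 4 above and 5 below 0. The constitutive haem oxygenase Hmox2 had 0.06 and 0.08 on its 2 probes, on the other side of 0 from Hmox1. Biliverdin, the product of haem oxygenase, is reduced by Blvra and Blvrb, which had -0.04 and -0.15. The ferritin subunits Fth1 and Ftl1, which store iron, had -0.13 and -0.29, and the second probe of Ftl1 had -0.43. The iron exporter Slc40a1 was highest at 0.33.

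Of 13 detoxifying enzymes and exporters, 11 were detected, 6 above and 5 below 0, with a median of 0.03. One of them, the exporter Abcc4, lay beside 3 spots more than 2-fold lower, and without spots in such areas 5 were above and 5 below 0, with a median of -0.06. Ptgr1, which reduces reactive lipid aldehydes and prostaglandins, was lowest, with 624 before loading and 383 at 24 h, a log2 ratio of -0.70. Of the 28 spots around that of Ptgr1, 2 were more than 2-fold lower. The median log2 ratio of its detected neighbours was -0.27. The carbonyl reductase Cbr1 was highest, with 3973 and 5061, a log2 ratio of 0.35. Probes of Aldh3a1, an aldehyde dehydrogenase, disagreed, with -0.14 on the brighter and -1.12 on the dimmer one.

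**Figure D4:**
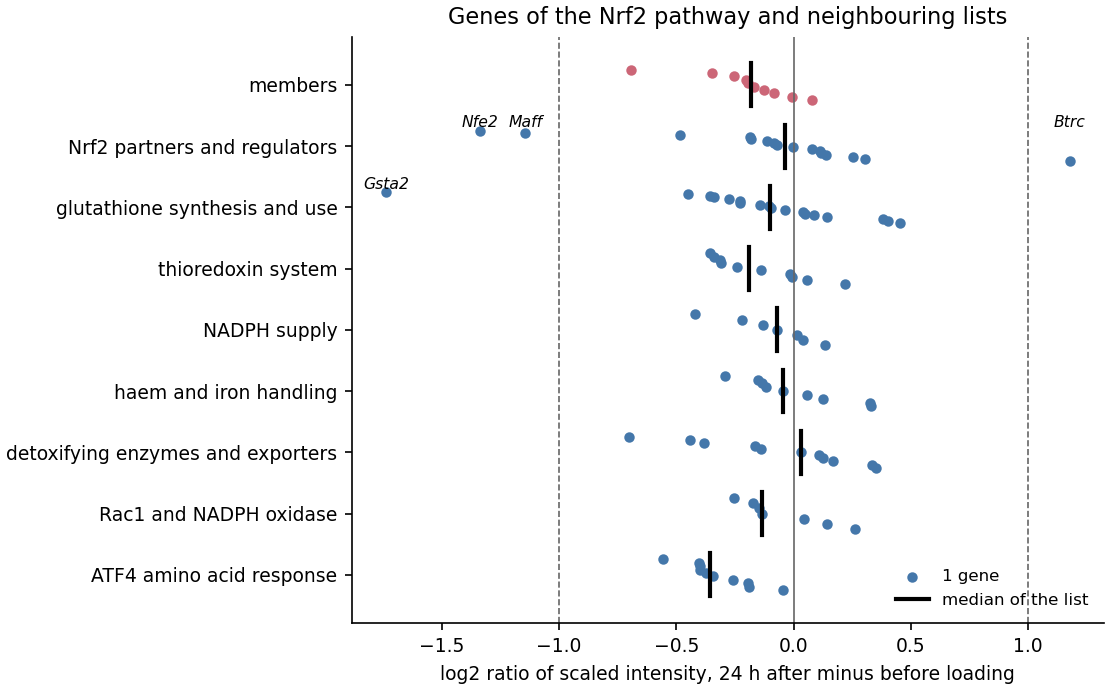
Log2 ratio (24 h after minus before loading) of each detected gene in the members, the 6 pathway lists and 2 neighbouring lists, 1 point per gene at its brightest probe, with the list median as a black bar and dashed lines at 2-fold. Points past 2-fold are named, namely Btrc on the right and Nfe2, Maff and Gsta2 on the left. All 10 points of the ATF4 list lie left of 0, as did 52.4% of all detected genes.

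A pair of neighbouring systems touches the members. Rac1 and the NADPH oxidases produce superoxide, one source of the oxidants that act on Keap1. Of this list 7 genes were detected, 3 above and 4 below 0. Rac1 itself had -0.25 on its brighter probe, from 17537 to 14697, and 0.17 on the other, from 9046 to 10189. Among the detected genes of this list the highest was Ncf4 at 0.26 on a dim probe. ATF4, the factor of the amino acid response, also activates Slc7a11. All 10 genes of the ATF4 list were detected and all 10 had ratios below 0, against 52.4% of all detected genes. Their median was -0.36, from -0.56 for Ddit3, a stress-induced transcription factor, to -0.05 for Atf4. Under median scaling 9 of these 10 remained below 0, while 63.1% of all detected genes were above it.

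The label of the cells was checked on chondrocyte markers, all 12 of which were detected. Col2a1, the main collagen of cartilage, had 499543 before loading and 474876 at 24 h, and Acan, its main proteoglycan, 71350 and 89998. Their log2 ratios lay between -0.82 for Col11a1 and 0.56 for Matn1, with a median of 0.08. Matn1 lay beside 3 spots more than 2-fold lower, and without spots in such areas 11 markers were left, with a median of 0.07. All 6 fibroblast markers were detected, with ratios from -0.04 for Col1a1 to 0.13 for Col3a1. Before loading Col1a2 had 85821 and Dcn 81565, both above Acan, and Col1a1 had 34458, Col3a1 11149, Pdgfra 1139 and Thy1 204. The share of fibroblast-like cells in the culture was not tested. Of the endothelial markers Kdr (-0.05) and Pecam1 (0.23) were detected and Cdh5, Tek, Tie1 and Emcn were not. The Kdr value rests on a single bright spot, with 12774 before loading, while the other Kdr probe, with 9 spots, had 5.2 and was not detected. Of the muscle markers Acta1 (-0.31) and Myog (-0.13) were detected, and Myod1, Ckm, Des and Actn2 were not.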

How the data were processed

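Total RNA was labelled with Cy3 and hybridised to SurePrint G3 Mouse Gene Expression arrays. The deposited files hold, per spot, a background-subtracted intensity made with Feature Extraction 10.10.1.1, not normalized between arrays, beside its error and flags. The authors also deposited rounded copies of these intensities, which differed by at most 0.499%. The 255 of 59305 spots flagged as outliers were left out, spots of one probe were averaged, and each log2 value was taken minus that of the array's 75th percentile over 55678 probes. Accessions were matched without versions to RefSeq names (GRCm38.p6), which named 27235 probes. The design's build is mm9, so gene coordinates were taken only from the RefSeq promoter table. The brightest probe stands for its gene.

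Spots well above background made up 59.1% of the first array and 57.7% of the second. With 1 array per group the number of arrays limits the precision. Named are all members, every listed gene past 2-fold, otherwise the highest and lowest of a list, and direct partners of members. Genes named for disagreeing probes (Aldh3a1), as further cell markers or as not detected were chosen after their values were seen. The members and lists were chosen with earlier results of these data known. Neighbouring spots were counted within 100 µm at 3 µm per pixel, and their changes only where they were well above background on both arrays. The alternatives used limma 3.58.1 under R 4.3.3 (normexp with offset 50 on the median spot intensity, loess with span 0.3) and, as the main steps, numpy 2.4.6 and pandas 2.3.3 in Python 3.11.15. The steps were tested on simulated data. A listed gene is not reported here.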

Additional observations from a re-analysis of the deposited data

How the results depend on the processing

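No paired analysis was possible because each time point has a single array. Each member was recomputed under 9 other settings and moved by less than its within-array error in each of them. Several settings could move a member little or not at all by construction. The mean over probes leaves members with 1 probe unchanged, the authors' values are rounded copies, and median and spike-in scaling shift every gene by the same amount. Of the 10 members, Nfe2l2 was above 0 in 2 and Txnrd1 in 5 of the 9 settings, while the other 8 kept their sign. The median of the members lay between -0.18 and -0.08. The number of members above 0, 1 as reported, was 3 with either median or spike-in scaling, 2 with quantile normalization, 2 with loess and 2 with normexp correction. The number lower by more than 1.5-fold, 1 as reported, was 0 with the mean over probes, because the dimmer probe of Hmox1 then counts. Of all detected genes 95 were more than 2-fold higher and 260 lower as reported. These counts were 130 and 205 after median scaling, 124 and 208 after spike-in scaling, 38 and 117 with normexp correction, 192 and 507 when detection on at least 1 array was enough and 492 and 983 with no filter on dim probes. The last 2 settings add dim probes by construction, and the normexp offset of 50 pulls dim ratios toward 0 by construction. How much of the lower normexp counts comes from the offset was not tested. Signal over background limits the dim genes: spots counted as well above background reached down to 17.3 on the first and 17.8 on the second array, and Nfe2 at 24 h lay close to that.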
